A study of Mus musculus with 7 samples.

Results

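The 10 genes described here encode the enzymes that write and erase DNA methylation, the core of Polycomb repressive complex 2, and a reader of methylated DNA. They were selected by gene symbol, and all 10 are among the 15815 genes of the expression table. Dnmt1, Dnmt3a and Dnmt3b are the DNA methyltransferases, Tet1, Tet2 and Tet3 the 5-methylcytosine oxidases, Ezh2, Eed and Suz12 the Polycomb core, and Mbd2 the reader. RNA was measured in regulatory T (Treg) cells, a class of CD4 lymphocytes that keeps immune responses in check. DNA methylation and histone marks were not measured.

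The hosts were Rag-/- mice, which make no lymphocytes of the T or B lineage. They were injected with 3 populations: naive T cells (WT), Treg cells without the YFP mark (WT) and YFP+ Treg cells. After 8 weeks the YFP+ fraction was isolated by flow sorting from the mesenteric lymph nodes (mLN). The YFP+ Treg cells were WT in 4 libraries (WT 1 to WT 4) and lacked Hpgd, which encodes a prostaglandin-inactivating enzyme, in 3 libraries (KO 1 to KO 3). The strain is C57BL/6JRcc. The line is labelled with a floxed Hpgd allele and Foxp3-YFP-Cre, in which Foxp3, the master transcription factor gene of Treg cells, drives Cre. The line and strain labels are the same for all 7 libraries, and only the titles tell WT from KO. Nothing in the labels ties the libraries to separate hosts. The p-values therefore measure only the spread between these samples, which may be technical.

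Cytosine methylation at CpG sites is copied to new DNA strands by Dnmt1 after replication, while Dnmt3a and Dnmt3b methylate new sites. Tet enzymes oxidise 5-methylcytosine and so start its removal. Polycomb repressive complex 2 methylates histone H3 at lysine 27, a mark of silenced genes. In Treg cells, an intronic enhancer of Foxp3 is demethylated, which keeps Foxp3 expressed as the cells divide. Tet2 and Tet3 are known for keeping that enhancer demethylated, Mbd2 for binding there, and Ezh2 for holding the repressed part of the Treg programme in activated cells.

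The promoters of the members were searched for CpG sites and for matches to binding sites of E2F, the transcription factors of S phase entry. Promoter windows (RefSeq, GRCm38.p6, 250 bases before to 50 after each start site) were found for 9 members, with 13 windows in all, and none is given here for Mbd2. Both strands were searched for 3 E2F forms, TTTGGCGC, TTTCGCGC and TTCCCGCC, and for CCGGAAG (ETS), GGGCGG (Sp1) and CCAAT (NF-Y). An E2F form was found in 2 windows, one of Dnmt1 and the one of Ezh2, an ETS match in none, an Sp1 match in 9 and an NF-Y match in 6. Of all 32851 windows of the table, 0.514% held TTTGGCGC, 0.323% TTTCGCGC and 2.19% TTCCCGCC, while 8.86% held CCGGAAG, 35.7% GGGCGG and 37.4% CCAAT. All of these motifs but CCAAT contain a CpG. The observed to expected CpG ratio was over 0.6 in 9 of the 13 member windows and in 35.8% of all windows. The shares over all windows are therefore not matched to the members for CpG. In the Dnmt1 window TTTCGCGC lay on the opposite strand from base -219 and TTTGGCGC from base 34, counted from the start site. In the Ezh2 window TTTGGCGC lay from base 4. None of these matches overlapped a match to another searched motif. The windows are shown in the direction of the gene with the E2F matches in capitals, since the levels of both genes are set beside proliferation genes further on.
Dnmt1, chr9:20952574-20952873, minus strand: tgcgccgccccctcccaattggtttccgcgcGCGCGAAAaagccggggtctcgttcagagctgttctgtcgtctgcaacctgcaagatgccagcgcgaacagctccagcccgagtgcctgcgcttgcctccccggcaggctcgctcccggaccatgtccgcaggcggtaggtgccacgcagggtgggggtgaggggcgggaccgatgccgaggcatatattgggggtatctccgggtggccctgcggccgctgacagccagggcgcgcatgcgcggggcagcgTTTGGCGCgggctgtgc
Ezh2, chr6:47594981-47595280, minus strand: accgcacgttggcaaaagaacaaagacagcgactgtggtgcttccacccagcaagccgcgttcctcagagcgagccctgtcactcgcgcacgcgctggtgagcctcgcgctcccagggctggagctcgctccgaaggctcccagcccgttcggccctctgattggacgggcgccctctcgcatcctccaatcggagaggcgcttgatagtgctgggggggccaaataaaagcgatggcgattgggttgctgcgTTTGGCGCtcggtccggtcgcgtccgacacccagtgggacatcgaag

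Tet2 and Suz12 were the pair of members whose levels were most alike over the libraries, narrowly ahead of Ezh2 and Mbd2. The root mean square differences were 0.129 and 0.130 log2 units. Tet2 and Suz12 both had their lowest value in WT 2, at 174 and 269. The windows of Tet2 and Suz12 held none of the 3 searched E2F forms. The Suz12 window holds the similar TTTCCCGC and the Tet2 window the similar GTCCCGCC. These were not searched, so an E2F site is not excluded in either window. Both windows were rich in CpG, the sites that DNA methyltransferases and Tet enzymes act on. The Tet2 window held 57 CpG, with an observed to expected ratio of 1.17, and the Suz12 window 41, with a ratio of 1.09. The Ezh2 window held 31 CpG and the Dnmt1 window shown above 33. Over all windows of the table the median was 7 CpG and a ratio of 0.384. The CpG are in capitals.
Tet2, chr3:133544341-133544640, minus strand: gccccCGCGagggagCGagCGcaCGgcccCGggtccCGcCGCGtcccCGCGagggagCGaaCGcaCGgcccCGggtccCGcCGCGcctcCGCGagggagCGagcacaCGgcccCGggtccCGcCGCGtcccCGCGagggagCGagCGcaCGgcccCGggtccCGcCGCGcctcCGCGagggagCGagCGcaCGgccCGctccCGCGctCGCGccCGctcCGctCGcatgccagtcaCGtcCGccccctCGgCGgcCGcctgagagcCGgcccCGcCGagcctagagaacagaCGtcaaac
Suz12, chr11:79992856-79993155, plus strand: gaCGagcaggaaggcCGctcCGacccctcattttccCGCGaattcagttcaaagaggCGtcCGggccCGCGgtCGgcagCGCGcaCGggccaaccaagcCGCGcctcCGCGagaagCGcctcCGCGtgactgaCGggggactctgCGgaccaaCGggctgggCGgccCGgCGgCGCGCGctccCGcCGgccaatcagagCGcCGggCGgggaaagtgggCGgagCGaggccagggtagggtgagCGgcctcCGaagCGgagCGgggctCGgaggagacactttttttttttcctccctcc

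Reads behind the table ranged from 4135733 (KO 3) to 10622507 (WT 4) per library. Levels below are normalized counts, the deposited values minus an offset of 1, as mean ± SD. Where 2 means stand side by side, WT comes before KO. Hpgd lay between 9.96 and 18.7 in WT and between 0.759 and 5.52 in KO, without overlap, on 1 to 19 reads per library. The 5 T cell markers of the table summed to at least 27626 and the 8 Treg markers to at least 34414 in every library, though Foxp3 itself was at 56.1 to 161. Of the other lists, the sums of B cell, CD8 T cell, NK cell, plasma cell, macrophage, dendritic cell, neutrophil and stromal markers overlapped between the groups. Their highest sum was 1603, for the 6 macrophage and monocyte markers in KO 1. The 5 erythroid markers summed to 642 to 2809 in WT and 77.4 to 239 in KO. The part of these markers in the results below was not tested. In bulk RNA fewer expressing cells and less RNA per cell cannot be told apart.

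Libraries WT 2 and KO 3 stood apart. A tested gene in WT 2 differed from the median of the other 6 libraries by 0.52 log2 units in the median, in KO 3 by 0.39 and in WT 3 by 0.34, against 0.22 to 0.25 in the other 4 libraries. Ribosomal protein genes took 7.63% of the reads in WT 2 and 4.37% to 5.54% elsewhere. WT 2 also read long genes low. Its median deviation was 0.37 in the 3788 tested genes with the shortest merged exons and -0.64 in the 1154 genes of at least 10 kb. WT 3 leaned the other way, at -0.19 and 0.24, and was the highest library for Tet1, Tet2, Tet3 and Suz12. The part of length in those values was not tested. The values of the 10 genes and of the gene lists are therefore also given without WT 2 and KO 3.

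Per kb of merged exons, Mbd2 was highest at 363 ± 70.4 normalized counts (SD, n = 7 libraries), at the 91.0th percentile of tested genes. It overlapped no other gene, its lowest library being at 286 and the highest of Eed at 217. Eed at 152 ± 34.7 and Suz12 at 135 ± 40.5 followed, and their ranges overlapped. Dnmt1 at 70.3 ± 15.1 and Ezh2 at 56.9 ± 15.6 overlapped as well, and Suz12 reached down into their range in WT 2 (54.4). Dnmt3a (37.4 ± 5.08), Tet3 (31.7 ± 7.23) and Tet2 (28.2 ± 9.70) could not be ordered beyond their spread. Dnmt3b at 13.0 ± 6.55 and Tet1 at 2.45 ± 1.60 were lowest. Dnmt3b overlapped Tet2 through the WT 2 value of Tet2 (10.3), and Tet1 lay below all other genes, at the 3.43rd percentile. With the longest transcript as the length in place of all exons merged, Ezh2 (136 ± 37.4) passed Dnmt1 (88.4 ± 18.9), while Mbd2, Eed and Suz12 were again the 3 highest and Dnmt3b and Tet1 the 2 lowest.

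**Figure D1:**
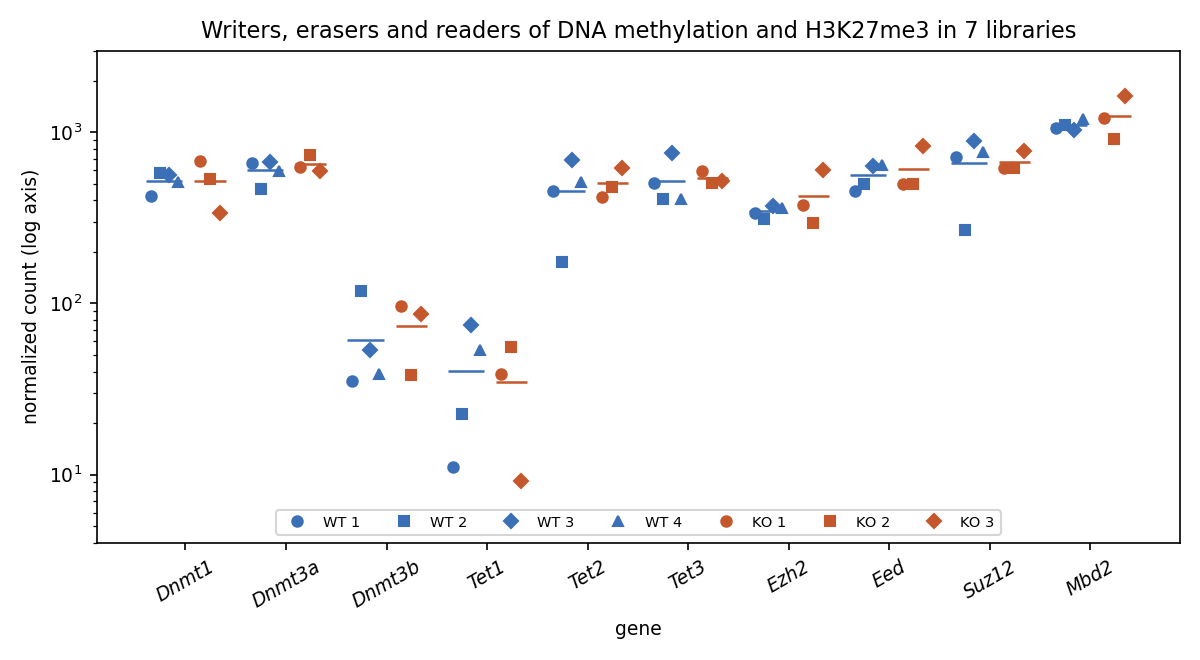
Normalized count (log axis) of the 10 genes in each of the 7 libraries, with WT in blue, KO in orange and horizontal lines at the group means. Dnmt3b and Tet1 lie below the other 8 genes, WT 2 is low for Tet2 and Suz12, KO 3 is high for Ezh2, Eed and Mbd2, and WT and KO values overlap for every gene.

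None of the methyltransferase genes differed between WT and KO beyond the spread of the libraries. Dnmt1, the maintenance enzyme (mm10, chromosome 9, 20907209 to 20959888, minus strand), had 422, 579, 561 and 510 normalized counts in WT 1 to WT 4, and 684, 536 and 340 in KO 1 to KO 3. The KO values lay on both sides of the WT range, with KO 1 highest and KO 3 lowest of all libraries. The means were 518 ± 70.0 (SD, n = 4) and 520 ± 172 (SD, n = 3), with a fitted difference of -0.04 log2 units (SE 0.25; limma adjusted p = 1.00). Without WT 2 and KO 3 it was 0.29 (95% interval -0.15 to 0.74). Its partner Uhrf1, which guides Dnmt1 to newly replicated DNA, had 92.4, 244, 59.9 and 64.7 in the WT libraries, and 101, 122 and 57.0 in the KO libraries. WT 2 held the highest Uhrf1 value and KO 2 the next.

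Dnmt3a (mm10, chromosome 12, 3806007 to 3914443, plus strand) varied least of the 10 genes. It had 667, 466, 667 and 595 in the WT libraries, and 629, 737 and 598 in the KO libraries, with WT 2 lowest. The within-group SD was 0.213 on the log2 scale, against a median of 0.409 over all tested genes. The log2 fold change was 0.14 (SE 0.21; limma adjusted p = 1.00), with a 95% interval from 0.805-fold to 1.50-fold. It was 0.022 without WT 2 and 0.084 without WT 2 and KO 3.

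Dnmt3b (mm10, chromosome 2, 153649450 to 153687730, plus strand), the other enzyme of new methylation, split the libraries across the genotypes. It had 35.2, 118, 53.2 and 38.7 in the WT libraries, and 97.1, 38.0 and 86.4 in the KO libraries, so that WT 2, KO 1 and KO 3 were high and the other 4 libraries low. These values rest on 32 to 130 reads per library. The 95% exact Poisson intervals of WT 4 (29.1 to 50.3) and KO 1 (81.0 to 115) did not meet, while those of WT 3 (39.1 to 70.7) and KO 3 (63.5 to 115) did, and these intervals cover counting error only. The log2 fold change was 0.33 (SE 0.51; limma adjusted p = 1.00). It was 0.083 without KO 1, 0.75 without KO 2, 0.70 without WT 2 and 0.54 without WT 2 and KO 3. Per kb, Dnmt3a exceeded Dnmt3b in 7 of 7 libraries, by 1.22 times in WT 2 and 5.95 times in KO 2.

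Of the Tet genes, Tet2 and Tet3 carried nearly all of the family's transcripts. Tet1 (mm10, chromosome 10, 62804570 to 62908996, minus strand) had 11.0, 22.6, 74.6 and 53.4 in the WT libraries, and 38.7, 55.7 and 9.19 in the KO libraries. KO 3, the lowest, rests on 5 reads (95% exact Poisson interval 2.99 to 21.5 normalized counts) and WT 1 on 10. Tet1 gave 0.873% to 5.93% of the summed Tet level per kb, while Tet2 gave 28.5% (WT 2) to 53.6% (KO 3) and Tet3 the remainder. Its log2 fold change was -0.21 (SE 0.76; limma adjusted p = 1.00), with the widest 95% interval of the 10 genes, from 0.276-fold to 2.71-fold, and without WT 2 and KO 3 it was 0.37.

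Tet2 (mm10, chromosome 3, 133463679 to 133545139, minus strand) had 452, 174, 687 and 512 in the WT libraries, and 417, 477 and 616 in the KO libraries. WT 2 lay far below the other 6 libraries, with an exact Poisson interval of 150 to 200 from 192 reads. The means were 456 ± 213 and 503 ± 102, with a fitted difference of 0.28 log2 units (SE 0.38; limma adjusted p = 1.00). Without WT 2 the estimate was -0.13, and without WT 2 and KO 3 it was -0.28 (95% interval -0.75 to 0.19). Without WT 3, the highest library, it was 0.53. The merged exons of Tet2 span 16870 bases. Of the 1154 tested genes with at least 10 kb, 16.3% deviated downwards in WT 2 by as much as Tet2 or more.

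Tet3 (mm10, chromosome 6, 83362373 to 83459084, minus strand) had 509, 407, 758 and 408 in the WT libraries, and 596, 507 and 519 in the KO libraries. Its KO values lay within the WT range, where WT 3 was high and WT 2 and WT 4 low. The log2 fold change was 0.10 (SE 0.25; limma adjusted p = 1.00), and without WT 2 and KO 3 it was 0.026. The ratio of Tet2 to Tet3 per kb ran from 0.42 in WT 2 to 1.24 in WT 4, so neither gene led in all libraries, and Tet2 was the higher in 2 of 7 libraries with merged exons and in 5 of 7 with the longest transcript.

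**Figure D2:**
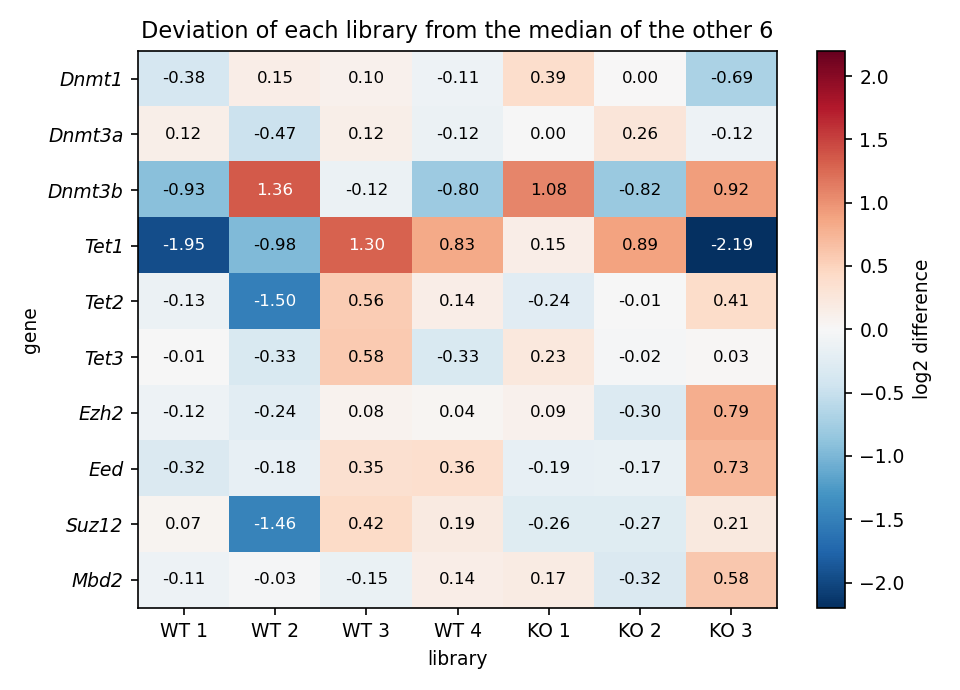
Difference in log2(normalized count + 1) between each library (columns) and the median of the other 6, for each of the 10 genes (rows). WT 2 stands at -1.50 for Tet2 and -1.46 for Suz12, and KO 3 at 0.79 for Ezh2, 0.73 for Eed and 0.58 for Mbd2.

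The Polycomb core genes did not differ between the genotypes beyond the spread of the libraries. Ezh2, the catalytic subunit (mm10, chromosome 6, 47530139 to 47595341, minus strand), had 338, 311, 370 and 363 in the WT libraries, and 374, 297 and 607 in the KO libraries. KO 3 alone stood above the rest, and KO 2 was the lowest of all libraries. The means were 345 ± 27.1 and 426 ± 161, with a fitted difference of 0.24 log2 units (SE 0.26; limma adjusted p = 1.00). Without KO 3, which has the fewest reads, the estimate was -0.05, and without WT 2 and KO 3 it was -0.10. The KO 3 value rests on 330 reads, with an exact Poisson interval of 543 to 676 that covers counting error only. Ezh1, the alternative catalytic subunit of resting cells, was at 478 ± 77.6 and 511 ± 93.8. The ratio of Ezh2 to Ezh1 per kb lay between 0.59 (WT 2) and 1.35 (KO 3) with merged exons. With the longest transcript it lay between 0.80 and 1.82, so which gene is higher depends on the length used.

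Eed, the subunit that binds methylated lysine 27 (mm10, chromosome 7, 89954654 to 89980983, minus strand), had 455, 500, 640 and 645 in the WT libraries, and 498, 502 and 831 in the KO libraries. KO 3 was again highest, while KO 1 and KO 2 lay among the WT values. The log2 fold change was 0.10 (SE 0.24; limma adjusted p = 1.00), and without KO 3 it was -0.15 and without WT 2 and KO 3 it was -0.20. The ratio of Ezh2 to Eed per kb lay between 0.32 and 0.43 over the 7 libraries. Both genes were highest in KO 3, and WT 3 and WT 4 were the next highest for Eed only.

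Suz12, the scaffold subunit (mm10, chromosome 11, 79993106 to 80034123, plus strand), was not highest in KO 3. It had 723, 269, 896 and 765 in the WT libraries, and 622, 616 and 776 in the KO libraries, with WT 2 far below the others. The ratio of Suz12 to Eed per kb was 0.42 in WT 2 and 0.72 to 1.23 in the other 6 libraries. The log2 fold change was 0.14 (SE 0.35; limma adjusted p = 1.00). Without WT 2 it was -0.25, and without WT 2 and KO 3 it was -0.35 (95% interval -0.74 to 0.04; limma adjusted p = 0.998). Without WT 3, the highest library, it was 0.33. The merged exons of Suz12 span 4945 bases. Among 3110 tested genes of 0.8 to 1.25 times that length the median deviation of WT 2 was 0.02, and 8.26% of them lay as low as Suz12 or lower.

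**Figure D3:**
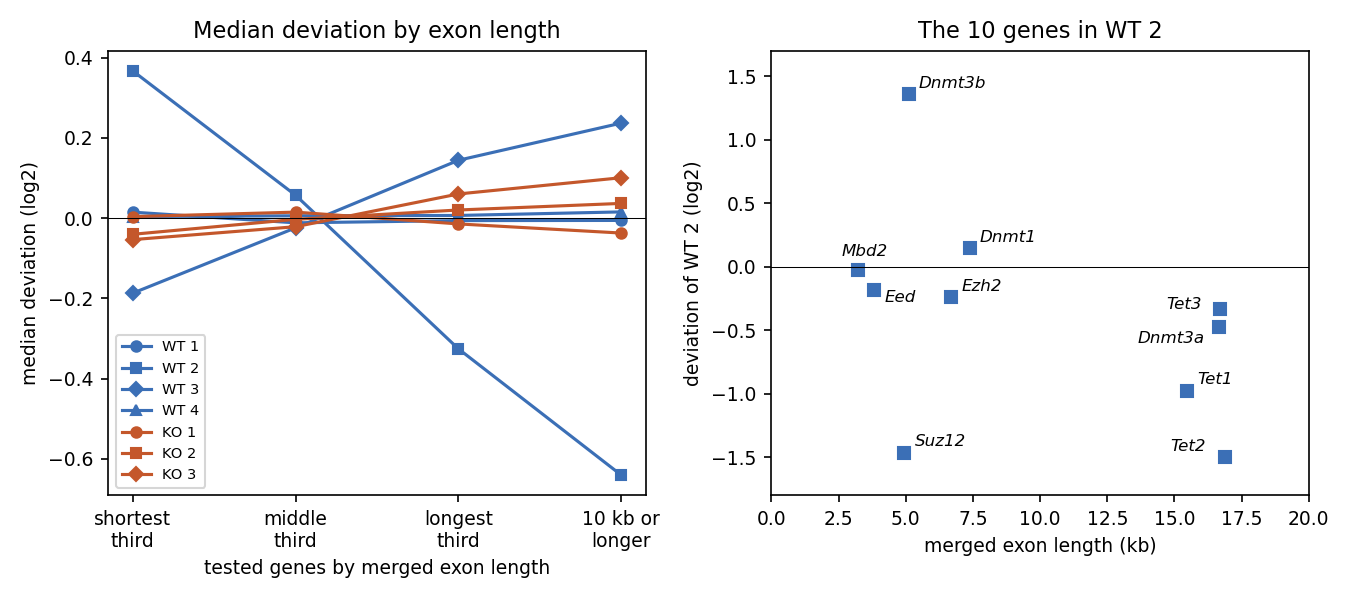
Left, median deviation (log2) of each library from the other 6 over tested genes grouped by merged exon length, with WT in blue and KO in orange. In this left panel the WT 2 median falls from 0.37 in the shortest genes to -0.64 in genes of at least 10 kb. Right, deviation of WT 2 for the 10 genes against merged exon length in kb, where Suz12, at 4945 bases, lies nearly as low as Tet2.

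Mbd2, the methyl-CpG reader that brings the NuRD deacetylase complex to methylated DNA (mm10, chromosome 18, 70568189 to 70626131, plus strand), was the most abundant of the 10 genes. It had 1063, 1105, 1037 and 1198 in the WT libraries, and 1221, 919 and 1626 in the KO libraries. The WT libraries lay close together, with KO 2 below all of them and KO 1 and KO 3 above all of them. The means were 1101 ± 70.5 and 1255 ± 355, with a fitted difference of 0.15 log2 units (SE 0.21; limma adjusted p = 1.00). Without KO 3 the estimate was -0.053, and without WT 2 and KO 3 it was -0.051. The 95% interval over all libraries ran from 0.808-fold to 1.53-fold.

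With p-values adjusted over all tested genes, limma called 0 of the 10 genes at 0.05, and the WT and KO values overlapped for all 10. Among all 11787 tested genes 0.0% passed, and the groups did not overlap for 3.65%. At an unadjusted p under 0.05 limma gave 0 of the 10 genes and 211 of all tested genes, and voom on the recovered reads also passed 0 genes at an adjusted p of 0.05, with 184 at an unadjusted p under 0.05. Estimates were higher in KO for 8 of the 10 genes, against 51.8% of all tested genes, with a median log2 fold change of 0.14 against 0.01. Without WT 2 and KO 3 the count was 5 of 10, with a median of -0.01. The 95% intervals of Dnmt1, Dnmt3a, Tet3, Ezh2, Eed, Suz12 and Mbd2 stayed within a 2-fold change in either direction, and those of Dnmt3b, Tet1 and Tet2 did not.

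**Figure D4:**
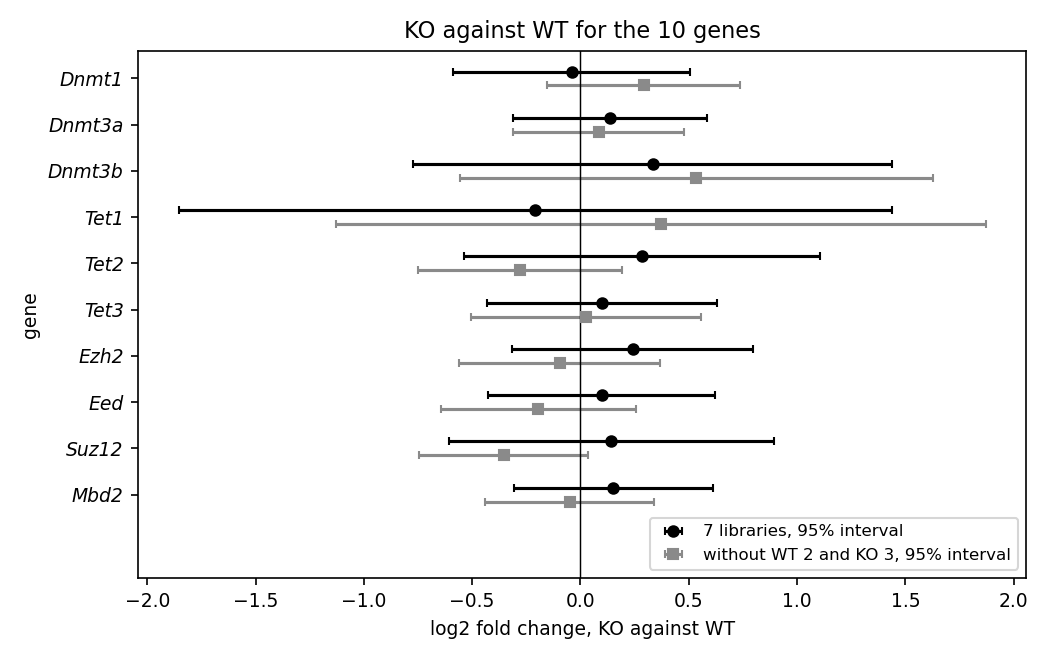
Log2 fold change of KO against WT for each of the 10 genes, as black circles over all 7 libraries and grey squares without WT 2 and KO 3, with 95% limma intervals. All intervals include 0, and the estimates of Dnmt1, Tet1, Tet2, Ezh2, Eed, Suz12 and Mbd2 change sign between the sets of libraries.

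The partner genes of these enzymes gave no calls. None of 96 tested genes in 8 related lists passed limma over all genes, and 58 estimates were above 0 and 38 below. The count above 0 was 50 of 96 without WT 2 and KO 3. The 9 partners of Polycomb repressive complex 2 had 6 higher and 3 lower estimates, with a median log2 fold change of 0.16, against 3 of 9 higher and a median of -0.054 without WT 2 and KO 3. Their smallest p values were those of Lcor, Aebp2 and Phf19. Aebp2, a DNA-binding accessory subunit, had 1207 ± 212 in the WT and 1485 ± 462 in the KO libraries (0.27, SE 0.23), and without WT 2 and KO 3 its estimate was -0.10. Lcor was at 22.6 in WT 2 and 178 to 416 elsewhere. Phf19 was near the floor, listed at 0 in WT 3 and at most 46.0 in KO 2. The 23 genes of Polycomb complex 1 and the associated deubiquitinase split into 13 higher and 10 lower, with a median of 0.02, against 9 of 23 higher and a median of -0.11 without WT 2 and KO 3. Pcgf6, a subunit of a variant complex 1, was at 177 ± 48.1 and 257 ± 52.9 (0.55, SE 0.28, and 0.32 without WT 2 and KO 3), Cbx2 at 20.3 ± 9.20 and 31.9 ± 2.41, and Cbx6 at 304 ± 64.2 and 246 ± 14.6.

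Of the 2 demethylase genes that erase the Polycomb mark, Kdm6b, which is induced by stimulation, had the smaller p. It had 673, 885, 896 and 776 in the WT libraries, and 540, 560 and 715 in the KO libraries. KO 1 and KO 2 lay below every WT library, while KO 3 lay above WT 1. The log2 fold change was -0.42 (SE 0.20; limma adjusted p = 1.00). It lay between -0.54 and -0.34 when each library was left out in turn and at -0.50 without WT 2 and KO 3. The related demethylase gene Kdm6a was at 386 ± 97.1 and 392 ± 24.7.

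Readers and cofactors of DNA methylation had 6 higher and 5 lower estimates among 11 tested genes, with a median log2 fold change of 0.02. Without WT 2 and KO 3 the count was 4 of 11 and the median -0.10. Hells, a chromatin remodeller needed for DNA methylation, had 117 ± 50.6 in the WT and 167 ± 10.6 in the KO libraries (0.63, SE 0.39), with WT 2 at 52.5. Its estimate was 0.30 without WT 2 and 0.26 without WT 2 and KO 3. The methyl-CpG binding genes Mbd1 and Mbd3 were at 497 ± 58.6 and 403 ± 30.3, and at 329 ± 91.7 and 258 ± 72.7. Of the 11 tested demethylation cofactors, 6 had higher and 5 lower estimates, also with a median of 0.02, against 5 of 11 and a median of -0.081 without WT 2 and KO 3. D2hgdh, which removes the Tet inhibitor D-2-hydroxyglutarate, was at 220 ± 50.7 and 166 ± 42.7. The base excision gene Smug1 was at 110 ± 18.3 and 86.2 ± 43.1, with its estimate moving from -0.50 to -0.084 without WT 2 and KO 3, and Gadd45a at 18.2 ± 14.2 and 30.2 ± 16.4. The 9 NuRD partners of Mbd2 had 3 higher and 6 lower estimates, all between -0.22 and 0.15, with a median of -0.054. Without WT 2 and KO 3 this turned to 5 of 9 higher and a median of 0.034. Among them Mta2 was at 1388 ± 210 and 1239 ± 57.1, Mta1 at 212 ± 55.5 and 182 ± 51.6, and the deacetylase gene Hdac2 at 313 ± 65.1 and 356 ± 123.

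Genes of methyl donor synthesis supply S-adenosylmethionine, the methyl source of both enzyme classes. The estimates of 5 of 7 tested genes were above 0 and those of 2 below, with a median of 0.29, and without WT 2 and KO 3 the median was 0.17. Mtap, which recycles methylthioadenosine, had 201, 241, 180 and 141 in the WT libraries, and 268, 295 and 259 in the KO libraries. Every KO value lay above every WT value, which together with the opposite order held for 3.65% of all tested genes, with a fitted difference of 0.54 log2 units (SE 0.26; limma adjusted p = 1.00). Mtr was at 182 ± 44.1 and 242 ± 41.1, and Mat2b at 1746 ± 247 and 2145 ± 466. Without WT 2 and KO 3 the estimate of Mtr moved from 0.43 to 0.24 and that of Mat2b from 0.29 to 0.10.

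**Figure D5:**
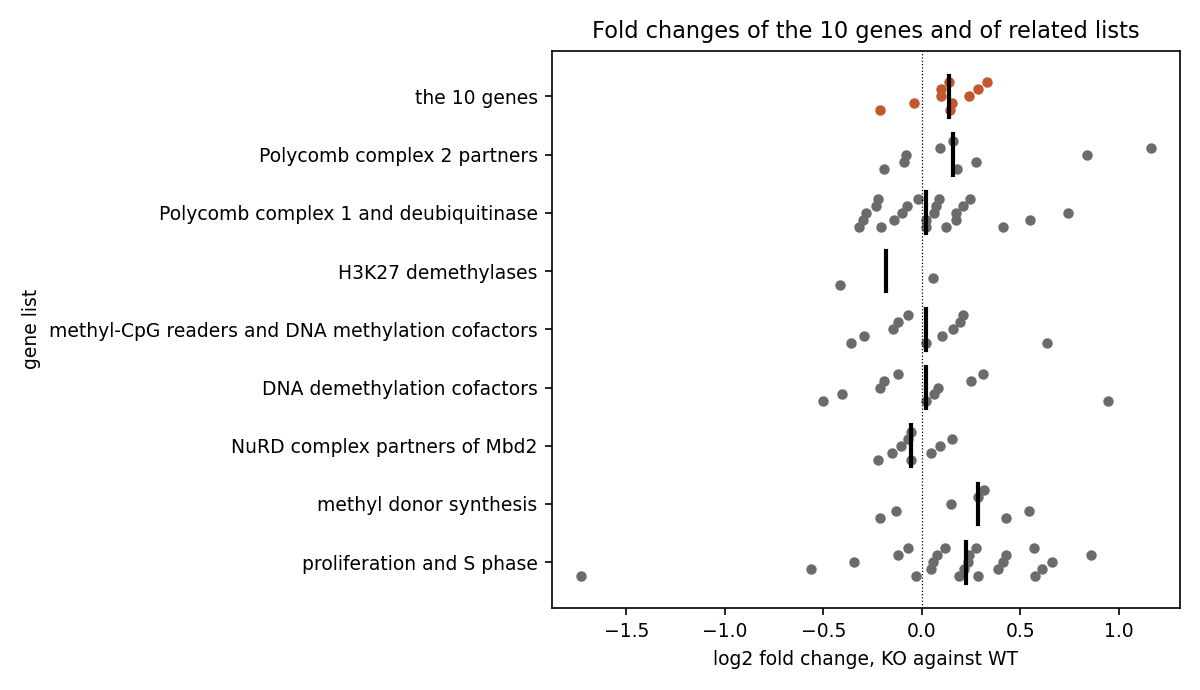
Log2 fold change of KO against WT for the 10 genes (orange) and for the tested genes of 8 related lists (grey), with vertical bars at the medians. The 10 genes lie between -0.21 and 0.33, and none of the genes shown passed the test.

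Dnmt1, Uhrf1 and Ezh2 are known as genes whose transcripts rise in cycling cells, so proliferation genes were read beside them. The estimates of 18 of 24 such genes were above 0 and those of 6 below (median 0.22), and none passed. The count was 19 of 24 and the median 0.27 without WT 2 and KO 3. Their summed level was 7296 to 10280 in WT and 9006 to 10336 in KO, highest in KO 3 and WT 2. As WT 2 read short genes high and long genes low, its sum may not reflect proliferation. The part of exon length in that sum was not tested. Ezh2 was highest in KO 3 but not in WT 2. Dnmt1 was lowest in KO 3, while its WT 2 value (579) lay below that of KO 1 only. Uhrf1 was highest in WT 2 (244) and lowest in KO 3 (57.0). Top2a and Mki67 were the genes of this list whose groups did not overlap, 2 of 24 beside 3.65% of all tested genes. Top2a, the topoisomerase of dividing cells, was at 477 ± 76.9 and 639 ± 76.6 (0.43, SE 0.21), and Mki67, a marker of cycling cells, at 490 ± 246 and 748 ± 76.1 (0.86, SE 0.46). Mki67 was at 124 in WT 2, and without WT 2 and KO 3 its log2 fold change was 0.31. Gins2, of the replication helicase, was at 294 ± 108 and 199 ± 79.0. Its estimate moved from -0.56 to -0.86 without KO 1 and to -0.12 without WT 2 and KO 3.

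Likeness of pattern was measured as the root mean square difference of log2 values centred over the 7 libraries. Among the 10 genes the most alike were Tet2 and Suz12 (0.13 log2 units), Ezh2 and Mbd2 (0.13) and Ezh2 and Eed (0.17). The least alike were Dnmt3b and Tet1 (1.38), the members with the fewest reads (486 and 302) and the widest within-group SD (0.758 and 1.24). The measure is not scaled to the spread of a gene, so it is larger for genes that vary more. Other genes were compared where their SD over the libraries was at least 0.5 times that of the member, which left 11241 genes for Dnmt1, 11181 for Ezh2, 7741 for Tet2 and 11597 for Mbd2. The nearest to Ezh2 were Fbxo45 (0.03), Prpsap2 (0.07) and Ppp1r2 (0.08), and Fbxo45 was at 180 to 216 in 6 libraries and at 357 in KO 3. The nearest to Mbd2 were Prorsd1 (0.07), Mapk1ip1l (0.08) and Arhgap26 (0.08), and each of these was highest in KO 3. The nearest to Tet2 were the low-count gene Gm29968 (0.07), Atxn7 (0.08) and Birc6 (0.09), and Birc6 was at 1205 in WT 2 and 2648 to 3956 elsewhere. The nearest to Dnmt1 were Dcaf12 (0.09), Blmh (0.09) and Mgrn1 (0.10). These are descriptions over 7 libraries that share the same sort and scaling.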

How the data were processed

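The 7 SmartSeq2 libraries were made from 10 ng of total RNA each, run on a NextSeq 500, and demultiplexed by bcl2fastq2 2.20, per the labels' protocols. The submitters' processing notes list DESeq2, Partek 6.6, kallisto 0.44, CASAVA 1.8 and R 3.3.1, with mm10 as the build. The sources used here do not state how genes were filtered. The table deposited by the authors holds normalized signal, with 1 value for each gene in each library. Every library had a lowest value of 1. After subtraction of 1, each value came out as a whole number of reads times a factor of its library (100% within a tolerance of 0.01 reads). Values minus 1 were used as normalized counts. Reads carry no molecular identifiers, so read intervals cover counting error only.

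limma 3.58.1 (R 4.3.3) was fitted to log2(normalized count + 1) in all 7 libraries, without covariates, with a trended prior, on 11787 genes with a mean of at least 10, and p-values were adjusted over all of them (Benjamini-Hochberg, 0.05). All 10 members passed this filter. Exon lengths and gene positions were taken from GENCODE M21, whose assembly, GRCm38, is mm10. The code was tested on simulated data. The named genes are the 10 members, up to 3 of smallest p per list, Ezh1, Kdm6a, Kdm6b, Uhrf1, Mki67, Hpgd, and the 3 nearest genes to Dnmt1, Ezh2, Tet2 and Mbd2. The members and lists were chosen with earlier results of these data known. The exon length comparison was added after the values were seen. The result of 1 list gene is not reported here. edgeR was not used. Alternatives were other pseudocounts, filters, scalings, priors, weights, voom, a replicate block and left-out libraries.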

Additional observations from a re-analysis of the deposited data

Results flagged for a closer look

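In the 4 WT libraries Mki67 was at 124 in WT 2, while the other 3 lay between 581 and 656. The gap to the nearest library was 0.860 of the group's range, above the critical value of 0.829 for 4 samples. In total 36 genes were checked in this way, and chance marks about 1 in 20 groups. WT 2 also read long genes low, and 4.07% of the 1154 tested genes with at least 10 kb of exons deviated as far downwards there as Mki67. None of the 10 enzyme and reader genes met this limit in WT, although WT 2 lay far below the other WT libraries for Tet2 and Suz12. The KO group, with 3 libraries, cannot be checked in this way.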

How the results depend on the processing

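None of the 10 genes passed in any of the 18 alternatives. Over all tested genes 0 passed, against 4 with array weights, 3 under the replicate block and 4 without WT 2 and KO 3, and 0 in the remaining settings. The direction of 8 of the 10 genes turned in at least 1 alternative, and Dnmt3a and Dnmt3b kept theirs in all that were run, Dnmt3b between 0.083 and 0.75 as each library was left out. Log2 fold changes without WT 2 and KO 3 were 0.29 for Dnmt1, 0.37 for Tet1, -0.28 for Tet2, -0.10 for Ezh2, -0.20 for Eed, -0.35 for Suz12 and -0.051 for Mbd2. With array weights they were 0.18, 0.40, -0.038, -0.037, -0.10, -0.19 and -0.069 in the same order. With voom Dnmt1 was at 0.018 and Tet1 at 0.064. Under the replicate block Tet1 was at 0.033 and Tet3 at -0.0018. Replicate numbers do not pair the libraries by the labels, and deviations of same-numbered libraries correlated over genes at 0.0081, -0.036 and 0.094, and WT 1 and WT 2 each correlated more with a KO library of another number. When each library was left out in turn, estimates ran from -0.27 to 0.24 for Dnmt1, -0.71 to 0.53 for Tet1, -0.13 to 0.53 for Tet2, -0.0021 to 0.30 for Tet3, -0.047 to 0.47 for Ezh2, -0.15 to 0.22 for Eed, -0.25 to 0.33 for Suz12 and -0.053 to 0.36 for Mbd2.

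Among partner genes, estimates without WT 2 and KO 3 turned to -0.38 for Lcor, -0.10 for Aebp2, -0.13 for Kdm6a, 0.067 for Mbd3, 0.15 for Mta1, -0.084 for Hdac2 and 0.64 for Uhrf1. With array weights Lcor was at -0.068, Aebp2 at -0.035, Kdm6a at -0.15, Mta1 at 0.043, Hdac2 at -0.037 and Uhrf1 at 0.43, and with voom Uhrf1 was at 0.0054. Leaving out each library in turn gave -0.028 to 1.25 for Lcor, -0.11 to 0.19 for Kdm6a, -0.80 to 0.020 for Smug1, -0.10 to 0.41 for Hdac2, -0.040 to 0.22 for Ezh1 and -0.35 to 0.32 for Uhrf1. The cause of these changes was not tested beyond the libraries left out. An edgeR fit was planned only if the deposited values were counts. Neither edgeR nor DESeq2 was run, because the deposited unit is normalized signal. In their place voom was run on the recovered reads. Tet1 lay below the stricter filter of a mean of 50. Among the 10 genes, Tet1 (302 reads in all) and Dnmt3b (486) had the fewest reads.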
